A study of Homo sapiens with 16 samples.

Results

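S100B, SCRG1, FABP7, NFIA, NFIB, NFIX and MITF are genes of glial and pigment cell differentiation, and they were followed here as human embryonic stem cells were turned into neural crest with or without an intact FOXB1 gene. They were chosen by symbol, and 7 of the 23284 genes of the authors' deposited table carry those symbols. The table gives each gene's level as FPKM, fragments per kilobase of transcript scaled to the mapped fragments of the library, which takes gene length into account.

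All groups came from WA01, an established human embryonic stem cell line, and all were grown with 3 µM CHIR99021, an inhibitor of GSK3 that turns on WNT signalling. The unedited groups were 2 isogenic wild-type lines, isoWT1 and isoWT2. The sgRNA-Het and sgRNA-KO lines had been edited with CRISPR/Cas9 and a single guide RNA at the start codon of FOXB1, a forkhead transcription factor, and they are called Het and KO here. Each was sampled at day 3, labelled pre-neural crest, and at day 5, labelled neural crest, with 2 replicates per group and 16 poly(A) RNA libraries in all. The labels name 1 line per edited genotype, so a difference between lines cannot be told apart from a difference between FOXB1 genotypes.

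In the crest, glial precursors are marked early by FABP7, a brain-type fatty acid binding protein also known from radial glia, and later by S100B, a calcium-binding protein of Schwann cells and astrocytes. SCRG1 encodes a small secreted protein found in mesenchymal and glial cells. NFIA, NFIB and NFIX belong with NFIC to the nuclear factor I family. These DNA-binding proteins bind as dimers to the core TTGGC and its reverse complement. NFIA and NFIB are known for starting glial gene expression in the embryonic spinal cord. MITF encodes the basic helix-loop-helix factor that commits crest cells to the melanocyte fate, and the crest factor SOX10 acts upstream of both Schwann cell and melanocyte genes.

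The starts of these genes are shown first because the members rose together at day 5 in the KO line, and the list holds both DNA-binding factors (NFIA, NFIB, NFIX) and genes known from the cells in which those factors act. RefSeq start sites on GRCh38.p14 were found for 6 of the 7 genes, 23 starts in all. S100B had no entry. Each stretch below is the 250 bases before 1 start, 5′ to 3′ on the gene's own strand. Capitals mark the NFI core TTGGC or its reverse complement GCCAA, and the SOX core ACAAAG or its reverse complement CTTTGT. SCRG1 and FABP7 have 1 listed start each. For the other genes the first listed start with an NFI core is shown.
FABP7, chr6:122779466-122779715, plus strand: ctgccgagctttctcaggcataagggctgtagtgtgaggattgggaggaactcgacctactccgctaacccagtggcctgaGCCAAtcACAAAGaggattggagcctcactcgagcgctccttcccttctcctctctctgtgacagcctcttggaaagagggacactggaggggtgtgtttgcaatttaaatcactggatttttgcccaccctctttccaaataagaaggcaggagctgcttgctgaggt
SCRG1, chr4:173399117-173399366, minus strand: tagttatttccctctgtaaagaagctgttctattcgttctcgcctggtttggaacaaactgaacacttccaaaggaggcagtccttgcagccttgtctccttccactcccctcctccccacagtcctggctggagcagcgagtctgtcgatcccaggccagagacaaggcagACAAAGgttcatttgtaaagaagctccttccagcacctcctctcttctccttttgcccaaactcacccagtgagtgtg
NFIA, chr1:61076977-61077226, plus strand: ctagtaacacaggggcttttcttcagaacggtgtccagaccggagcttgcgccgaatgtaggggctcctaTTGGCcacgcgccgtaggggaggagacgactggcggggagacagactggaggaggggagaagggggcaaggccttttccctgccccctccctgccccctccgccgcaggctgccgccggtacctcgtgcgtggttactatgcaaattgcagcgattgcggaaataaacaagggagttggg
NFIB, chr9:14322388-14322637, minus strand: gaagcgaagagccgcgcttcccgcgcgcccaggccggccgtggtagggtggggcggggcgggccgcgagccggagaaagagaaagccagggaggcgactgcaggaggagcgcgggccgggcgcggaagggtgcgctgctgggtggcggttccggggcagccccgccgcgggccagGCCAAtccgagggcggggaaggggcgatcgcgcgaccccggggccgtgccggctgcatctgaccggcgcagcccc
NFIX, chr19:13024329-13024578, plus strand: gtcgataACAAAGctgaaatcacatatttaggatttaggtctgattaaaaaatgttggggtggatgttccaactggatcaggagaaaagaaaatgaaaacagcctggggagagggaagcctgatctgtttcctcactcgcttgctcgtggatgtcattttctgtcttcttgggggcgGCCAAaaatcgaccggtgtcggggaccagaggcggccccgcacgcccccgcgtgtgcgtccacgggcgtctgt
MITF, chr3:69763561-69763810, plus strand: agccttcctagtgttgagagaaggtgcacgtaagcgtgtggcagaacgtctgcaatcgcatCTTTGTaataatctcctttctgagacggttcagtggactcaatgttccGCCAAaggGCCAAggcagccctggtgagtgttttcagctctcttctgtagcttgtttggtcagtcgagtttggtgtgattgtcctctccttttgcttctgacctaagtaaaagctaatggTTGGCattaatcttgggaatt

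In the FABP7 stretch an NFI core began 169 bases before the start and a SOX core 162 bases before it, so that the cores lie next to each other. The SCRG1 stretch held a SOX core 78 bases before its start and no NFI core. At least 1 NFI core was found at 12 of the 23 starts, among them 6 of 10 for NFIB, 2 of 5 for NFIX, 1 of 3 for NFIA and 2 of 3 for MITF. The SOX core was found at 8 of the 23. Both NFIX starts with cores lie within 2 bases of each other and share the same cores, so these counts hold 1 site of each kind more than once. Both are common strings. TTGGC on either strand occurred in 40.8% and ACAAAG in 13.7% of the 35116 windows of that length in the RefSeq table. The paired form, TTGGC followed after any 5 bases by GCCAA, was found in 10 of those windows and in none of the 23. These matches describe letters, and no binding was measured.

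FOXB1, the edited gene, had day 3 levels of 18.3 FPKM (wild type), 7.73 (Het) and 15.5 (KO), and day 5 levels of 5.51, 4.47 and 1.86. In the authors' deposited table it was lower in Het than wild type at day 3 (log2 change -1.25 ± 0.58 SE, q = 0.0117) and in KO than wild type at day 5 (-1.56 ± 0.69, q = 0.0142), and KO at day 3 was not called (-0.24 ± 0.56, q = 0.795). An edit at the start codon need not change the RNA level, so these values do not check the labels.

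S100B (chr21:48018531-48025035 in hg19, the build of the deposited table) was the most abundant of the 7 genes in KO cells at day 5. Day 3 levels were 3.77 FPKM (wild type), 1.13 (Het) and 7.05 (KO). Day 5 levels were 1.64 FPKM (wild type), 2.02 (Het) and 124.8 (KO). KO cells at day 5 thus stood apart, 17.7 times above the next highest group, KO at day 3. The table holds 1 FPKM for each group and none for a library, so whether both KO libraries at day 5 carried this level is unknown. In bulk samples more cells of a type and more RNA per cell cannot be told apart.

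SCRG1 (chr4:174309299-174320617) was low in all 3 groups at day 3, with 0.211 FPKM (wild type), 0.468 (Het) and 0.367 (KO). Day 5 brought 0.274 FPKM (wild type), 3.56 (Het) and 7.75 (KO). Here Het was also high at day 5, at 46.0% of the KO level.

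FABP7 (chr6:123100646-123105218) was well expressed in every group. Its day 3 levels were 20.4 FPKM (wild type), 25.6 (Het) and 17.6 (KO). Those at day 5 were 16.3 FPKM (wild type), 31.9 (Het) and 98.2 (KO). The lowest and highest of the 5 groups other than KO day 5 were 16.3 and 31.9 FPKM.

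The 3 NFI genes were near the floor everywhere but in KO cells at day 5. NFIA (chr1:61542946-61928460) lay between 0.0294 and 0.123 FPKM in the other 5 groups and at 1.07 in KO day 5. NFIB (chr9:14081842-14398982) went from 0.241 FPKM (wild type), 0.0600 (Het) and 0.436 (KO) at day 3 to 0.101, 0.00406 and 5.29 at day 5. NFIX (chr19:13106584-13209610) went from 0.157, 0.0416 and 0.309 FPKM to 0.0744, 0.0183 and 4.73 in the same order of lines. NFIB and NFIX were thus higher than NFIA in KO day 5 on a scale that accounts for length, and lowest in Het at day 5.

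MITF (chr3:69788586-70017488) stayed under 1 FPKM throughout. Day 3 levels were 0.0432 FPKM (wild type), 0.0191 (Het) and 0.0618 (KO). At day 5 it was listed at 0 in wild type, at 0.0390 in Het and at 0.846 in KO. Its transcript was therefore scarce even where it was highest.

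**Figure D1:**
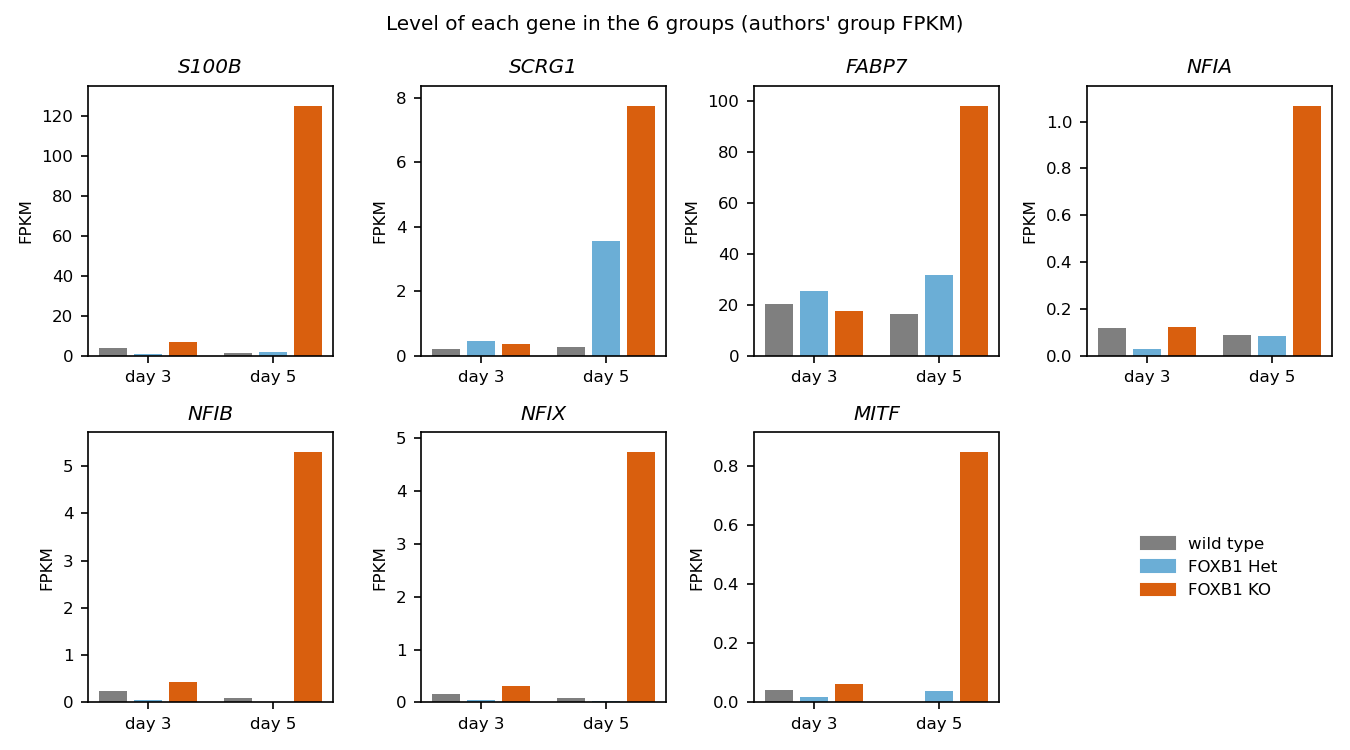
FPKM of each of the 7 genes (y axis, linear, a separate scale per gene) in wild type, Het and KO cells at day 3 and day 5, each bar the authors' single group value without an error. KO day 5 is the tallest bar for every gene, from 0.846 FPKM for MITF to 124.8 for S100B, and Het day 5 is the second tallest for SCRG1 (3.56) and FABP7 (31.9).

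Every one of the 7 genes had its highest level in KO cells at day 5, as did 23.7% of the 21077 genes with a level above 0. In the authors' deposited table a gene was called changed where q, the p-value adjusted over all 222234 tests of its 15 comparisons, was under 0.05. The SE of each log2 change below was taken from the deposited test score. NFIA, NFIB, NFIX and MITF were tested in that table only where KO day 5 was 1 of the groups compared, because they were too low elsewhere. A gene tested only through the group where it is high is likely to be called there, so the counts of members called describe these genes and lend no support.

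The KO line was compared with wild type at day 5 to ask what had changed in the glial genes when induction ended. All 7 genes were called higher in the authors' deposited table, where 7.58% of the 14936 genes tested were called higher and 5.68% lower. S100B was 76.1-fold higher (log2 change 6.25 ± 0.83 SE, q = 0.00126). SCRG1 was 28.3-fold higher (log2 change 4.82 ± 1.02, q = 0.0111). FABP7, which began from a higher level, rose 6.02-fold (log2 change 2.59 ± 0.51, q = 0.00126).

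Among the transcription factors in the same comparison of the authors' deposited table, NFIX was 63.5-fold higher (log2 change 5.99 ± 0.91, q = 0.00227) and NFIB 52.6-fold (5.72 ± 0.85, q = 0.00126). NFIA rose 12.2-fold (3.61 ± 0.95, q = 0.00126). Folds for these genes divide by levels of 0.0744 to 0.101 FPKM and are correspondingly loose. Adding 1 FPKM to both groups brought their log2 changes to 2.41 for NFIX, 2.51 for NFIB and 0.93 for NFIA. MITF was called (q = 0.00126) but has no fold, wild type being listed at 0. With only genes at 1 FPKM or more in both groups, 2 members could be tested, S100B and FABP7, and both were called.

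With Het as the reference at day 5, the authors' deposited table called 4 of the 7 genes higher in KO, against 5.55% of the 15000 genes tested. These were S100B (log2 change 5.95 ± 0.72 SE, q = 0.00126), FABP7 (1.62 ± 0.47, q = 0.00126), NFIA (3.64 ± 0.79, q = 0.00126) and MITF (4.44 ± 2.60, q = 0.00126). SCRG1 differed by 1.12 ± 0.67 and was not called (q = 0.189). NFIB and NFIX had the largest folds and were not called. NFIB was 10.3 ± 5.10 higher on the log2 scale with q = 0.582, over a Het level of 0.00406 FPKM. NFIX was 8.01 ± 1.34 higher with a score of 5.97 and q = 0.149. The deposited score and p-value thus part for these low levels, and for MITF in the opposite way, with a score of 1.71 and the smallest p-value of the table, 5e-05. Called by score in place of q, with or without centring on the median of expressed genes, NFIX passed and MITF did not, and with only genes at 1 FPKM or more in both groups the called members were S100B and FABP7.

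Het cells were compared with wild type at day 5 to ask how the heterozygous line differed. SCRG1 was the 1 member of the 3 tested that was called higher in the authors' deposited table (log2 change 3.70 ± 1.06 SE, q = 0.0127), where 1.14% of the 14561 genes tested were called higher and 1.02% lower. Without genes under 1 FPKM in either group, with q under 0.01 or with adjustment within the comparison, 0 of the members were called. FABP7 was 1.95-fold above wild type and was not called (0.97 ± 0.52, q = 0.059). Centred on the median of expressed genes, which moved its log2 change to 1.01, it passed the score at which deposited calls began. S100B gave 0.30 ± 0.97 (q = 0.872).

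**Figure D2:**
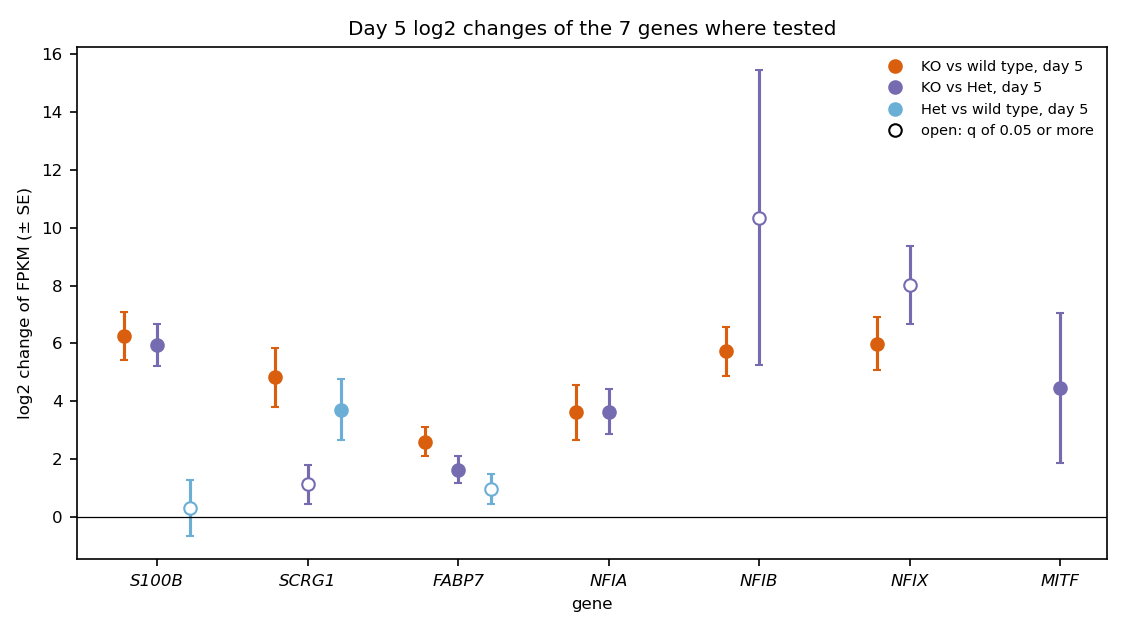
Log2 change of FPKM at day 5 (y axis) with its SE from the deposited test score for each gene and comparison tested, filled where q was under 0.05 in the authors' deposited table. MITF in KO against wild type has no fold and no point, and the open points for NFIB (10.3) and NFIX (8.01) are KO against Het.

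At day 3 only S100B and FABP7 were tested among the 7 genes. In KO against wild type neither was called, beside 9.51% of all genes tested. S100B was 3.34-fold lower in Het than in wild type (log2 change -1.74 ± 0.80 SE, q = 0.0157 in the authors' deposited table), where 4.63% of genes tested were called lower. It was not called at q under 0.01. Its KO level was 0.90 ± 0.70 above wild type (q = 0.189), and 2.64 ± 0.72 above Het (q = 0.00126), where 2.3% of genes were called higher. FABP7 differed by 0.32 in Het (q = 0.646) and by -0.22 in KO (q = 0.807) from wild type, and neither was called.

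The change from day 3 to day 5 was also taken within each line. In KO all 7 genes were called higher at day 5 in the authors' deposited table, beside 7.29% of the 14995 genes tested, and 2, S100B and FABP7, with only genes at 1 FPKM or more at both days. The log2 changes were 4.14 ± 0.56 SE for S100B, 4.40 ± 0.93 for SCRG1, 2.48 ± 0.50 for FABP7, 3.12 ± 0.75 for NFIA, 3.60 ± 0.63 for NFIB, 3.94 ± 0.63 for NFIX and 3.77 ± 1.72 for MITF. This comparison shares the KO day 5 group with those above and does not repeat them independently. In Het 1 of 3 members tested was called higher, SCRG1 (2.93 ± 0.93, q = 0.00749), beside 4.74% of all genes; it is under 1 FPKM at day 3 and leaves 0 called with that filter. In wild type neither member tested was called, with -1.20 ± 0.93 for S100B (q = 0.132) and -0.32 for FABP7 (q = 0.604), while 21.6% of all genes tested were called in either direction.

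The difference between these time courses could be tested for S100B and FABP7. The day change of S100B was 5.35 ± 1.09 (SE, log2) larger in KO than in wild type (normal p from the deposited scores, Benjamini-Hochberg q = 0.000723 over 14143 genes). That of FABP7 was 2.81 ± 0.73 larger (q = 0.0418). By this measure 0.205% of genes had a larger change in KO, and 45 genes were called in either direction. The deposited p-values are smaller than a normal reading of the scores gives. With the SE scaled to them, 734 genes were called and 3.03% had a larger change in KO, and q was 1.79e-13 for S100B and 3.44e-07 for FABP7. In Het the day change of S100B was 2.04 ± 1.26 larger than in wild type and that of FABP7 0.64 ± 0.73, neither called, beside 0.0702% of genes with a larger change called. With the scaled SE 0.772% had a larger change, and q was 0.233 for S100B and 0.689 for FABP7. With only genes at 1 FPKM or more in all 4 groups, S100B was called in KO (q = 0.00131) and FABP7 was not (q = 0.065).

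Ranked by level, the neighbours KO day 5 and KO day 3 differed for S100B, NFIA, NFIB, NFIX and MITF (each q = 0.00126 in the authors' deposited table). For S100B no other pair of neighbours was called, with q from 0.189 to 0.872. For FABP7 the pair that differed was KO day 5 over Het day 5 (q = 0.00126), and the remaining neighbours had q from 0.646 to 0.928. For SCRG1 Het day 5 lay above Het day 3 (q = 0.00749), and KO day 5 over Het day 5 was not called (q = 0.189). The low neighbours of SCRG1, the NFI genes and MITF were not tested.

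Within the set, NFIB and NFIX ran most alike across the 6 groups, with a root mean square difference of 0.20 between their mean-centred log2(FPKM + 0.1) values over the 6 groups, and NFIA and MITF differed by 0.25. S100B was nearest to NFIX (0.53) and NFIB (0.59). FABP7 was nearer to MITF (0.44) and NFIA (0.53) than to SCRG1 (1.06), and NFIA was nearer to FABP7 than to NFIX (0.86) or NFIB (0.95). SCRG1 was at least 1.06 from every other member, and SCRG1 and NFIB were farthest apart at 1.83. SCRG1 and FABP7 had their second highest level in Het day 5. The other 5 genes had theirs in KO day 3, then wild type day 3, with wild type day 5 lower. That order, KO day 3 over wild type day 3 over wild type day 5, was seen in 5 of the 7 genes and in 19.1% of the 14855 genes that reached 1 FPKM in any group. It was read from these members, so its count among them lends no support. Neither of its steps was called for S100B (q = 0.189 and 0.132 in the authors' deposited table). For NFIA, NFIB, NFIX and MITF they were not tested.

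Expressed as a share of the KO day 5 level, S100B was at 5.65% in KO day 3, 3.02% in wild type day 3, 1.31% in wild type day 5 and 1.62% in Het day 5. NFIX was at 6.54%, 3.33%, 1.57% and 0.388% in those groups, and NFIB at 8.24%, 4.55%, 1.90% and 0.0768%. FABP7 was between 16.6% and 32.5% in the groups other than KO day 5. NFIA, NFIB and NFIX were among 380 genes, 2.56% of the 14855, that reached 1 FPKM in KO day 5 alone. The median over the other 377 was 17.7% in KO day 3, 15.0% in wild type day 3, 13.5% in wild type day 5 and 15.1% in Het day 5. The 377 genes were not matched to the members by level, and S100B, SCRG1, FABP7 and MITF did not meet that filter. The order KO day 3, wild type day 3, wild type day 5, which was read from the members, held in 32.6% of those 377 genes.

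**Figure D3:**
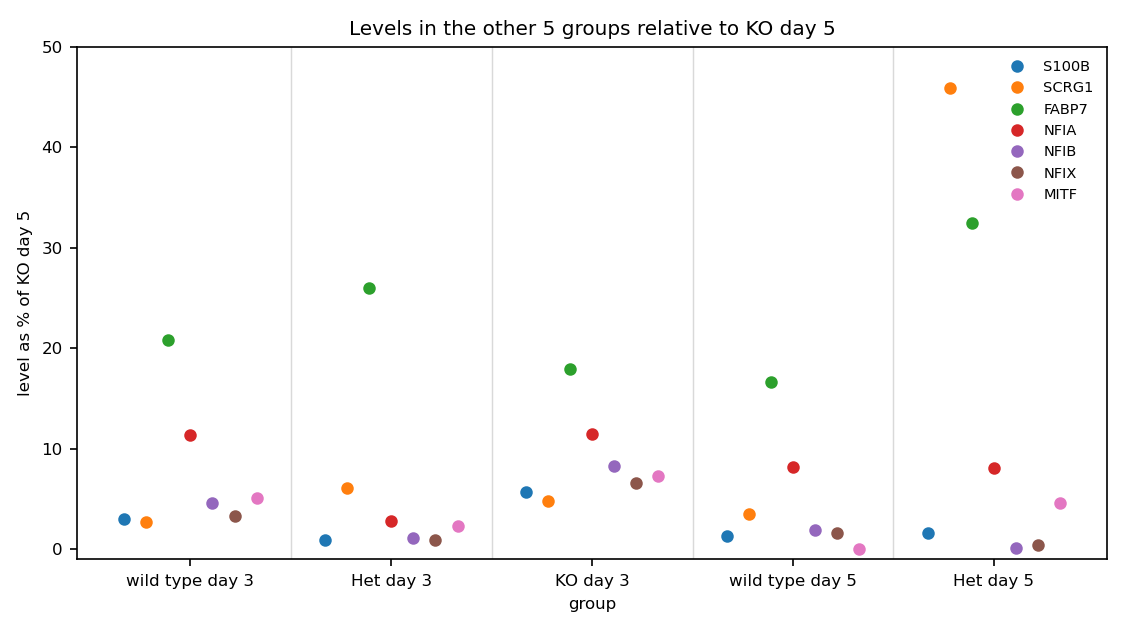
Level of each of the 7 genes in the other 5 groups as a percent of its level in KO cells at day 5 (y axis, linear), 1 point per gene and group, without error. SCRG1 (46.0%) and FABP7 (32.5%) stand high in Het day 5, where NFIB (0.0768%), NFIX (0.388%) and S100B (1.62%) lie close to 0.

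The genes most like each member over the 6 groups were found by the same measure among 14855 genes. Closest to S100B were KLRC4 (0.27), HOXB3 (0.29) and KLRC2 (0.36). KLRC2 and KLRC4 encode natural killer cell receptors, and HOXB3 a posterior patterning factor, and each was at 6.11 to 6.18 FPKM in KO day 5 and under 0.3 elsewhere. Closest to NFIB were LYSMD2, OAS3 and NFIX, and closest to NFIX were NFIB, LYSMD2 and MARC2, with differences from 0.17 to 0.22. OAS3 is an interferon-induced enzyme. Closest to NFIA were UAP1L1, TRIM14 and AHRR (0.14 to 0.17). FABP7 was matched by ERBB3 (0.24), the neuregulin receptor of crest and Schwann precursors, ITGA4 (0.24), an integrin of migrating crest, and P2RX6. SCRG1 was matched by ITGA8 (0.33), the endothelin receptor gene EDNRA (0.37) and GFRA1 (0.41). The choice of pseudocount decided most of these names. With 1 in place of 0.1, 1 of the 3 genes was shared for FABP7, NFIB and NFIX, and 0 for S100B, SCRG1 and NFIA.

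The remaining NFI gene, NFIC, showed the rise in KO day 5 from a higher start. Its levels were 0.769 FPKM (wild type), 0.413 (Het) and 0.492 (KO) at day 3, and 0.359, 0.299 and 1.95 at day 5. In the authors' deposited table it was higher in KO day 5 than in wild type (log2 change 2.44 ± 0.62 SE), in Het (2.70 ± 0.64) and in KO day 3 (1.98 ± 0.60), each with q = 0.00126. It fell in wild type from day 3 to day 5 by 1.10 on the log2 scale (q = 0.0293). All 4 NFI genes were therefore called higher in KO against wild type at day 5, beside 7.58% of all genes tested. Their summed level was 13.03 FPKM in KO day 5 against 0.407 to 1.36 in the other 5 groups.

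Among relatives of the other members, the FABP and CRABP genes did not share 1 direction. Of the 12 genes of the FABP and CRABP list, 6 were tested in KO against wild type at day 5, of which the authors' deposited table called 2 higher and 2 lower (median log2 change 0.35, beside 0.03 over all genes tested). Over all genes tested in that comparison, 7.58% were called higher and 5.68% lower. FABP7 and CRABP2 (0.94 ± 0.42) rose, while FABP5 (-1.68 ± 0.49) and CRABP1 (-1.21 ± 0.45) fell. FABP5 encodes a more widely expressed fatty acid binding protein and the CRABP genes encode carriers of retinoic acid. Of 19 S100 genes 8 were tested, 4 rose and 0 fell (median log2 change 2.21). Those that rose were S100B, S100A11 (3.53 ± 0.52), S100A16 (3.33 ± 0.59) and S100A4 (1.19 ± 0.50). The S100A genes and CRABP2 lie on the long arm of chromosome 1, where the median log2 change over 572 expressed genes was 0.37 at day 5 and, over 576, 0.60 at day 3. The part of that shift in their rise was not tested. None of the 7 members lies there or on chromosome 12, whose median was -0.50. Among the MITF relatives TFE3 was expressed in every group, at 6.33 to 14.04 FPKM, and was not called in KO against wild type at day 5.

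Lists of glial genes give the surroundings of these changes, and their counts include the members they hold. In the Schwann lineage list, 12 of 19 tested genes rose and 1 fell in KO against wild type at day 5, with a median log2 change of 2.14, beside 7.58% of all genes tested called higher, 5.68% lower and a median of 0.03. S100B, SCRG1 and FABP7 are 3 of the 12. The largest rises were those of FOXD3 (6.56 ± 0.90 SE, q = 0.0105), a crest specifier kept in glial precursors, and SOX10 (6.48 ± 0.68, q = 0.00126 in the authors' deposited table). The day 5 levels of SOX10 were 0.388 FPKM (wild type), 7.07 (Het) and 34.6 (KO). In Het against wild type 5 of 18 tested genes rose and 1 fell (median 0.81, beside 1.14% of all genes called higher and 1.02% lower), SCRG1, SOX10 (4.19 ± 0.85) and FOXD3 (4.50 ± 1.14) among those that rose, and EGR2, a myelination factor also active in the hindbrain, fell (-2.03 ± 0.71).

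In the list of radial glia and astrocyte genes, 12 of 20 tested rose and 3 fell in KO against wild type at day 5 (median log2 change 1.05). Over all genes tested in that comparison, 7.58% were called higher and 5.68% lower. FABP7, NFIA and NFIB are 3 of the 12. SPARCL1, a secreted matrix protein of astrocytes, went from 0.445 to 21.1 FPKM (5.57 ± 0.76, q = 0.00126), while HES5, a Notch target of neural progenitors, fell from 7.05 to 0.658 FPKM (-3.42 ± 0.94, q = 0.00227 in the authors' deposited table). In Het 3 of 18 tested rose (TNC, NCAN and APOE) and 0 fell (median 0.26), beside 1.14% and 1.02% of all genes tested. The oligodendrocyte list had 8 tested genes in KO, of which 6 rose, with OLIG2 at 16.4 FPKM against 0.252 in wild type (6.02 ± 0.88) and CSPG4 at 3.27 against 0.150 (4.45 ± 0.65). SOX10, which is in that list too, rose in Het as well.

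Several genes of mature glia, and CDH19 of Schwann precursors, were low in every group. In KO day 5 the astrocyte filament gene GFAP was at 0.0836 FPKM, the myelin gene MBP at 0.0749, the Schwann precursor cadherin CDH19 at 0.0290 and the water channel gene AQP4 at 0.351. MAG, a myelin gene, was listed at 0 in all 6 groups.

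Genes of pigment cells were mixed. TYR, TYRP1 and DCT, the enzymes of melanin synthesis, were at 0.0150, 0.0231 and 0.0340 FPKM in KO day 5. PMEL fell from 186.2 FPKM in wild type to 44.8 in KO at day 5 (-2.06 ± 0.43, q = 0.00126 in the authors' deposited table); it lies on chromosome 12. Of 13 tested genes in the melanocyte list 5 rose and 2 fell (median 0.74), beside 7.58% of all genes called higher and 5.68% lower. Besides MITF and SOX10 these were PAX3 (2.21 ± 0.50), the endothelin receptor gene EDNRB (4.22 ± 0.84) and OCA2 upward, and PMEL and KIT downward. The melanosome receptor gene GPR143 (3.80 FPKM in wild type and 5.90 in KO) and the melanocortin receptor gene MC1R (0.503 and 1.22) were not called.

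Among ligands, receptors and effectors of signals that promote glia, 2 of 20 tested genes rose and 4 fell in KO against wild type at day 5 (median log2 change 0.11). The share that rose is near the 7.58% of all genes called higher, and 5.68% were called lower. The Notch ligand gene DLL1 fell from 17.6 to 0.948 FPKM (-4.22 ± 0.61) and the neuregulin gene NRG1 from 19.4 to 3.29 (-2.56 ± 0.61), each with q = 0.00126 in the authors' deposited table. The Notch ligand gene JAG1 and HES5 also fell. The neuregulin receptor gene ERBB3 rose from 3.13 to 21.9 FPKM (2.81 ± 0.83), as did LIFR, a receptor for leukaemia inhibitory factor. In Het 0 of 20 rose, and DLL1 (-1.75 ± 0.46) and the Notch target HES1 (-1.73 ± 0.56) fell, beside 1.14% of all genes called higher and 1.02% lower.

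**Figure D4:**
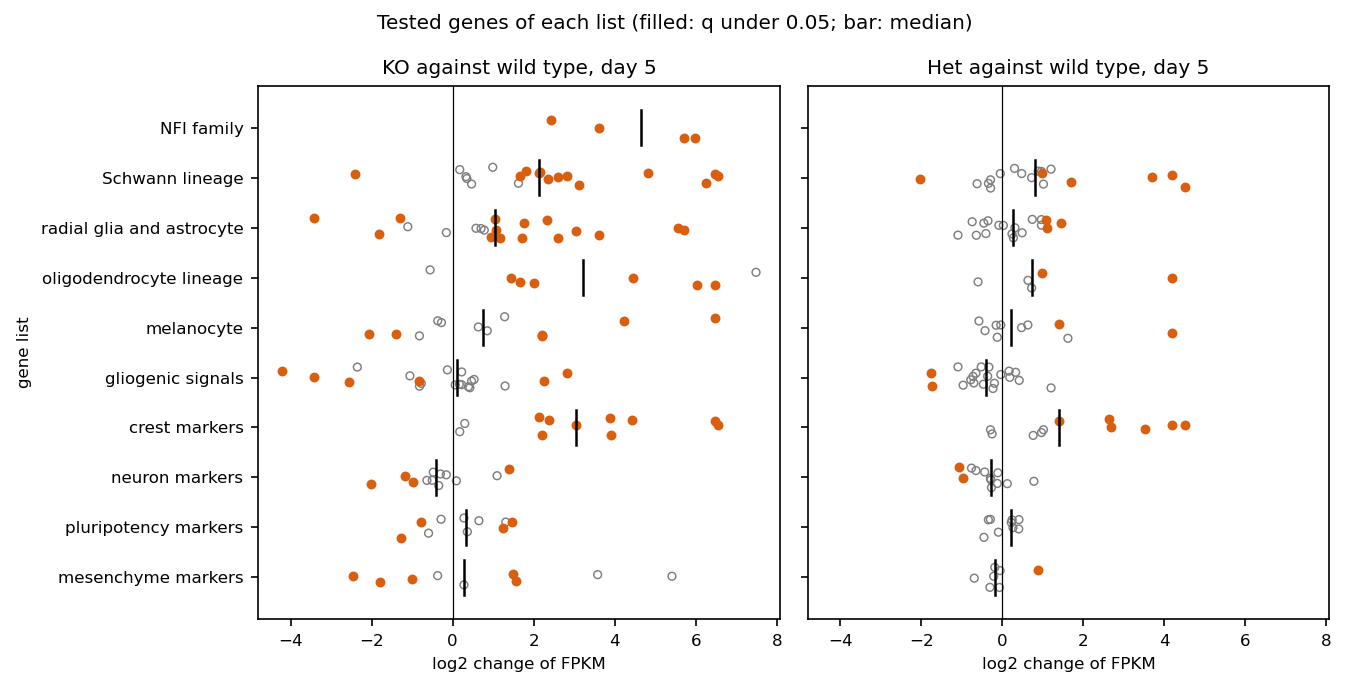
Log2 change of FPKM (x axis) of each tested gene with a fold in each list (y axis) for KO and for Het against wild type at day 5, filled where q was under 0.05 in the authors' deposited table, with a bar at the list's median. In KO the NFI, crest marker, Schwann lineage and oligodendrocyte medians (4.66, 3.05, 2.14 and 3.23) lie farthest to the right. The radial glia and melanocyte medians are 1.05 and 0.74, and those of pluripotency and mesenchyme markers 0.32 and 0.28. The gliogenic signals median (0.11) lies nearest 0, and the neuron median (-0.41) lies to the left.

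Markers of the crest and of other cell types moved beside the 7 genes. Of 12 crest markers 7 reached 1 FPKM in wild type at day 5. Among those that did not were SOX10, FOXD3, PAX7 and TWIST1 (0.388, 0.198, 0.206 and 0.151 FPKM). In Het and in KO 11 of 12 did. Their summed level at day 5 was 65.1 FPKM (wild type), 115 (Het) and 269 (KO). Of 11 tested, 9 rose in KO and 6 in Het, 0 falling in either, with median log2 changes of 3.05 and 1.39. Over all genes tested at day 5, 7.58% were called higher and 5.68% lower in KO, and 1.14% and 1.02% in Het. SOX10, FOXD3, NGFR and ITGA4 are in both the crest and the Schwann lineage lists. At day 3 the crest markers summed to 19.1, 66.4 and 86.7 FPKM in wild type, Het and KO. Neuron markers summed to 211, 178 and 132 FPKM at day 5, with 1 of 12 rising and 3 falling in KO. The share of neuron markers that rose is near that over all genes. Mesenchyme markers summed to 489, 500 and 361 FPKM, with 2 of 9 rising and 3 falling, and pluripotency markers to 536, 441 and 398 FPKM, with 2 of 10 rising and 2 falling. The part of these shifts in the levels of the 7 genes was not tested.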

How the data were processed

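Poly(A) RNA from 16 libraries (8 labelled groups of 2) was measured. Per the submitters' processing notes, TopHat2 2.1.1, hg19 and Cuffdiff 2.2.1 were used. Annotation and filters: not given in the sources used here. What the authors deposited is 1 table of FPKM per gene and group, log2 fold changes, a test score, and p-value and q-value for 15 comparisons of 6 groups, of which 9 are between lines at 1 day or between days in 1 line. It has 1 wild-type group per day, without saying which of the 4 wild-type libraries were used. The group called HOMO was read as KO. Counts, depth and values per library were not analysed here, so precision comes from the deposited scores alone. Nothing says that replicates were separate cultures, and p-values may then measure technical spread.

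A gene was called at a deposited q-value under 0.05. The SE was the log2 change over the deposited score. Day changes were compared between lines by their difference over the square root of the summed squared SEs (2-sided normal p, Benjamini-Hochberg). A run on simulated data with 200 changed genes drew its noise from those same SEs, so it cannot show whether they fit the real data. Each list is described by its counts and median. Named were the 7 members, FOXB1, NFIC, up to 4 called genes per list with the largest changes among those reaching 1 FPKM, and the 3 genes most like each member called and at 1 FPKM or more, by root mean square difference of mean-centred log2(FPKM + 0.1). Markers at or near 0, genes completing a count of 5 or fewer, TFE3, GPR143, MC1R and the named crest markers under 1 FPKM were added after their values were seen. Members and lists were chosen with earlier results of these data known. Alternatives were another adjustment, threshold, filter, fold minimum, centring, GC bins and pseudocount. GC content was matched for 86.2% of genes. Promoter stretches and motif searches used the RefSeq table for GRCh38.p14, a different build from the deposited values. Python 3.11.15, pandas 2.3.3, numpy 2.4.6 and scipy 1.17.1 were used.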

Additional observations from a re-analysis of the deposited data

Results flagged for a closer look

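The change of S100B from day 3 to day 5 differed between KO and wild type by 5.35 on the log2 scale (SE 1.09, q = 0.000723 over 14143 genes, from the deposited test scores). It was 4.14 in KO and -1.20 in wild type. The change of FABP7 differed in the same way by 2.81 (SE 0.73, q = 0.0418), from 2.48 in KO and -0.32 in wild type. Both were marked because the difference between the lines was itself past the threshold. With only genes at 1 FPKM or more in all 4 groups, S100B stayed past it (q = 0.00131) and FABP7 did not (q = 0.065). The levels are single group values.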

How the results depend on the processing

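No paired analysis was possible because the deposited table gives 1 value per group and none per library, and for the same reason no replicate could be left out. No result reversed. Requiring at least 1 FPKM in both groups and adjusting within those genes left 2 members called in KO against wild type at day 5 (from 7), 2 in KO against Het at day 5 (from 4), 2 in KO from day 3 to day 5 (from 7), 0 in Het against wild type at day 5 and 0 in Het from day 3 to day 5 (from 1 each), since fewer members were tested. Requiring it in all 4 groups left 1 member with a different day change in KO (from 2). With q under 0.01, 0 members were called in Het against wild type at day 3 and 0 at day 5 (from 1 each), and adjustment within the comparison gave 0 at day 5. Centring on the median or within 10 GC bins gave 2 members there, FABP7 joining. Of the members' log2 changes, centring either way, with calls by score in place of q, left 31 on their side of the threshold and moved FABP7 (Het against wild type) past it at day 5. NFIX passed (KO against Het, 7.96 and 8.06) and MITF did not (KO against Het, 4.39 and 4.34), which the score threshold gave without centring too. A pseudocount of 0.1 moved 5 of them by more than their SE, and 1 FPKM moved 16, all toward 0. Depth is unknown, so how many fragments lie behind the low NFI and MITF levels is not known.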

Other observations

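Several other genes had their highest level in KO cells at day 5, like S100B, NFIB and NFIX. They were chosen after their values were seen. PRAME, a gene known from testis and tumours, was at 55.7 FPKM in KO day 5 and between 0 and 2.35 FPKM in the other 5 groups. Of the KLRC genes, which encode natural killer cell receptors, 4 of 4 reached 1 FPKM in KO day 5 and 0 in any other group. Of the MAGEA genes, also known from testis and tumours, 2 of 11 reached it in KO day 5 and 0 elsewhere. Of the HOXB genes, which pattern the hindbrain and trunk, 4 of 10 reached it in KO day 5 and 2 in KO day 3. OLIG1, an oligodendrocyte lineage factor, was at 13.6 FPKM in KO day 5, at 0.388 in KO day 3, at 0.231 and 0.0755 in wild type at day 3 and day 5, and listed at 0 in Het. OLIG1 was tested in KO against wild type at day 5 and was not called.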
